A study of Mus musculus with 16 samples.

Results

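Polysome RNA from tBuHQ-perfused mouse livers was compared between Perk knockout and Perk wild-type animals, on 2 arrays of each genotype. The 4 arrays were chosen by their sample titles from 16 arrays in 8 groups of 2, which cross genotype, tBuHQ and fraction (unfractionated or polysome). The knockout mice carried Perk-/- with Alb/Cre, a Cre recombinase driven by the albumin promoter, so that the deletion is directed to hepatocytes and the other cells of the liver are expected to keep Perk. The controls were wild-type littermates, labelled Perk+/+, and all mice were 3 to 6 months old. Single-pass perfusion used a buffer with 0.1 mM CaCl2, and the 4 arrays described here come from livers that also received tBuHQ. This di-tert-butylhydroquinone, for which the labels give differing isomers, blocks calcium uptake into the endoplasmic reticulum (ER). Concentration and duration are stated in none of the sources used here. Polysomes, mRNAs that carry several ribosomes, were taken from sucrose gradients of 20 to 47%. Each array held RNA pooled from 2 livers, so n = 2 pools per genotype. The matched untreated polysome arrays and the matched unfractionated tBuHQ arrays, 2 per genotype in each case, served to place the difference.

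PERK, encoded by Eif2ak3, is an ER membrane kinase that phosphorylates the alpha subunit of the initiation factor eIF2 when unfolded proteins build up. Phosphorylated eIF2 slows initiation on most mRNAs, while a few mRNAs with upstream open reading frames, Atf4 among them, are translated better. ATF4 in turn activates genes for amino acid supply and tRNA charging, and the parallel ER sensors IRE1 and ATF6 induce chaperones and secretory factors. A polysome signal combines how much mRNA there is and how much of it carries ribosomes, and in whole liver fewer cells of a type and less RNA per cell cannot be told apart either.

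Wild-type replicate 2 stood apart before any gene was tested. Its 3' over 5' signal ratio, which rises when labelled RNA is short of its 5' part, was 5.60 for Gapdh, against 0.735 to 0.859 on the other 15 arrays. It was 28.4 for pyruvate carboxylase (2.24 to 4.74 on the others), and 16.3 for the thr RNA spiked in before labelling (0.900 to 1.29). The bioC spike added at hybridisation had 0.933 there, against 1.05 to 1.42. Across probe sets the 2 wild-type arrays correlated at 0.943, the lowest of the 8 replicate pairs. Where 2 differences, 2 medians or 2 adjusted p stand together below, the first is from all arrays and the second from the fit without wild-type replicate 2. Without it the wild-type group is a single array whose spread is assumed to be that of the other groups. The same holds for every value given without wild-type replicate 1. Those values rest on wild-type replicate 2 alone, the array with the raised ratios. The treatment labels also carry a limit. The authors deposited z scores as well, and matching by value showed that each of the 16 z-score columns, while right in genotype and fraction, is named for the other treatment than the title of the array it holds. The grouping here follows the sample titles, and by that table's names the 4 arrays would be untreated.

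**Figure D1:**
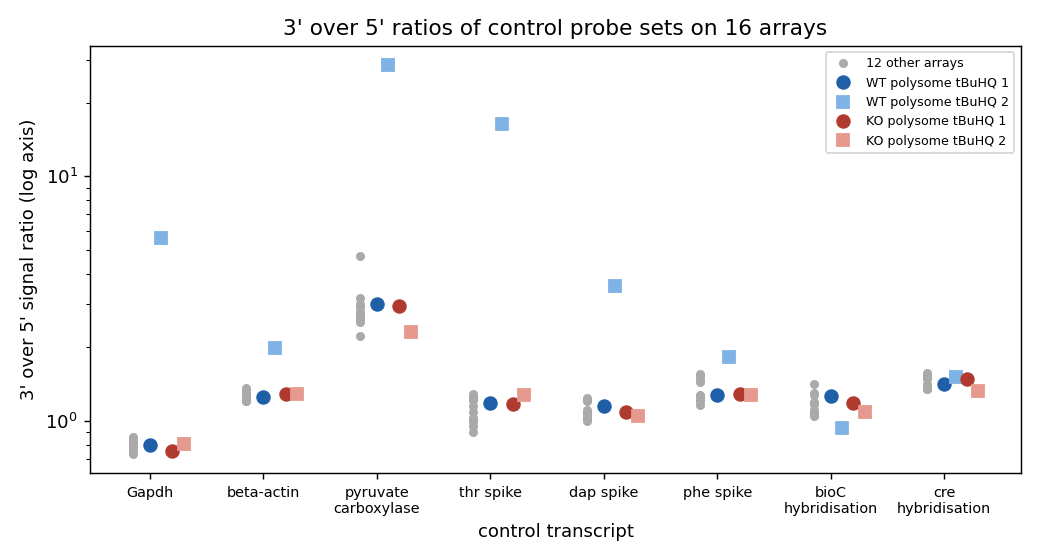
Ratio of 3' to 5' signal (log axis) of 8 control transcripts on each of the 16 arrays, with the 4 tBuHQ polysome arrays in colour and the 12 others in grey. Wild-type replicate 2 lies above all other arrays for Gapdh, beta-actin, pyruvate carboxylase and the thr, dap and phe spikes, and not for the bioC and cre hybridisation controls.

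Signals are the deposited array intensities, and differences are knockout minus wild-type on the log2(signal + 16) scale, with the standard error (SE) of limma's fit. The deleted gene was read first. Eif2ak3 had signals of 216 and 111 on the wild-type arrays and 33.6 and 34.5 on the knockout arrays. The genotypes did not overlap. The difference was -1.78 ± 0.35 (SE, n = 2 per genotype), with an adjusted p of 0.297 by limma over all genes. Without wild-type replicate 2 it was -2.21, with an adjusted p of 0.0493. Over all 16 arrays Eif2ak3 ranged from 26.3 to 49.2 in knockout and from 46.1 to 216 in wild-type liver. That mean difference of -1.31 gave a two-sided exact permutation p of 0.00154, the smallest that the 1296 splits within conditions can give. The splits took polysome and unfractionated arrays as independent, and the p would be too small if both fractions shared liver pools. The other 2 Eif2ak3 probe sets were at 13.6 or below on these 4 arrays, under the highest signal of an absent spike-in, 15.1. No source used here gives the position of the probes relative to the deleted exons.

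Of 12148 genes tested, none (0%) was called higher in knockout polysomes and 1 was called lower (0.00823%), at an adjusted p under 0.05 by limma. At an unadjusted p under 0.05 the same fit gave 478 higher (3.93%) and 600 lower genes (4.94%), 8.87% in all. Without wild-type replicate 2, 5 genes were called higher (0.0412%) and 4 lower (0.0329%). Leaving out wild-type replicate 1 instead gave 267 higher (2.2%) and 48 lower (0.395%), so the count depends on which wild-type array stands for the genotype. Without knockout replicate 1 no gene was called, and without knockout replicate 2 there was 1 in each direction, Cyp2c37 lower (-5.26, adjusted p 0.00328) and the chemokine gene Cxcl1 higher (2.27, adjusted p 0.0433). The wild-type arrays differed from each other by over 1 on the log2 scale in 1759 genes (14.5%), and the knockout arrays in 703 (5.79%). Both knockout arrays lay above both wild-type arrays in 1576 genes (13%) and below both in 2478 (20.4%). These latter shares are the background for the counts of non-overlapping list members that follow.

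**Figure D2:**
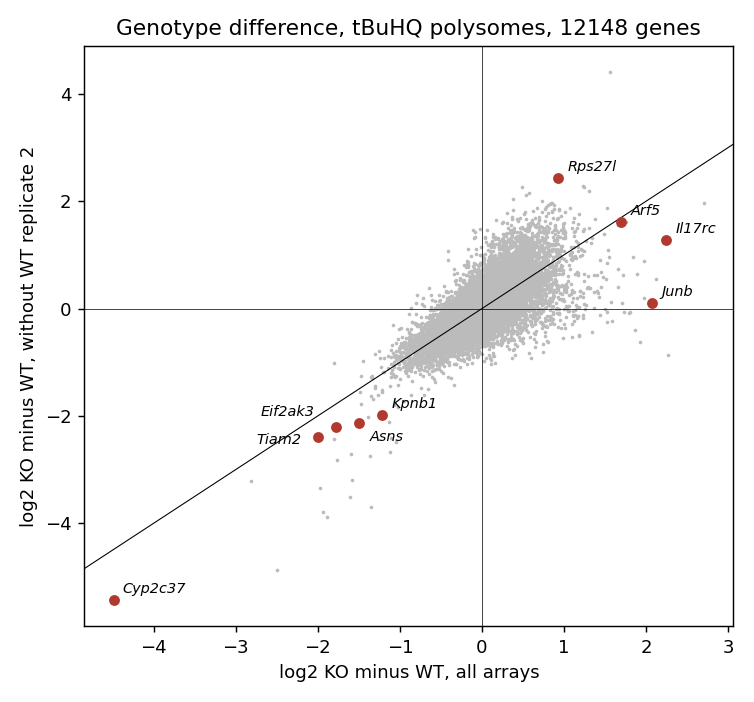
Genotype difference in tBuHQ polysome RNA for 12148 genes, with all arrays (x axis, log2) against the same without wild-type replicate 2 (y axis, log2), with the line of equality. Cyp2c37 lies far below the rest at -4.49 and -5.43, and Junb has 2.07 with that array and 0.10 without it.

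Cyp2c37, a cytochrome P450 of the Cyp2c family that oxidises arachidonic acid and drugs, was the gene called with all arrays. Its signals were 1754 and 464 on the wild-type arrays and 8.03 and 54.4 on the knockout arrays. Both knockout arrays were low, one of them under the absent spike-in level of 15.1, and the wild-type arrays lay far above. The difference was -4.49 ± 0.53 (SE, n = 2 per genotype), with an adjusted p of 0.00526 by limma. It was -5.43 without wild-type replicate 2 (adjusted p 0.000118) and -3.55 without wild-type replicate 1 (adjusted p 0.000711). Leaving out knockout replicate 1 gave -3.71 and an adjusted p of 0.171, which ended the call. On the unfractionated arrays from wild-type livers with tBuHQ, the signals were 1883 and 1708. On the 12 arrays that were not wild-type with tBuHQ, Cyp2c37 stayed between 8.03 and 54.4. The gene was thus high on 4 of 16 arrays, those of both fractions labelled wild-type with tBuHQ. In unfractionated tBuHQ RNA, where it was the 1 call in 12148 genes (0.00823%), the genotype difference was -4.79 (adjusted p 0.00228), and in untreated polysome RNA it was 0.36 (adjusted p 0.951). The difference between the treated and the untreated polysome contrasts was -4.84, with an adjusted p of 0.0660 with all arrays and 0.00161 without wild-type replicate 2. Members of the Cyp2c family are close in sequence, and which of their transcripts bound these probes was not tested.

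**Figure D3:**
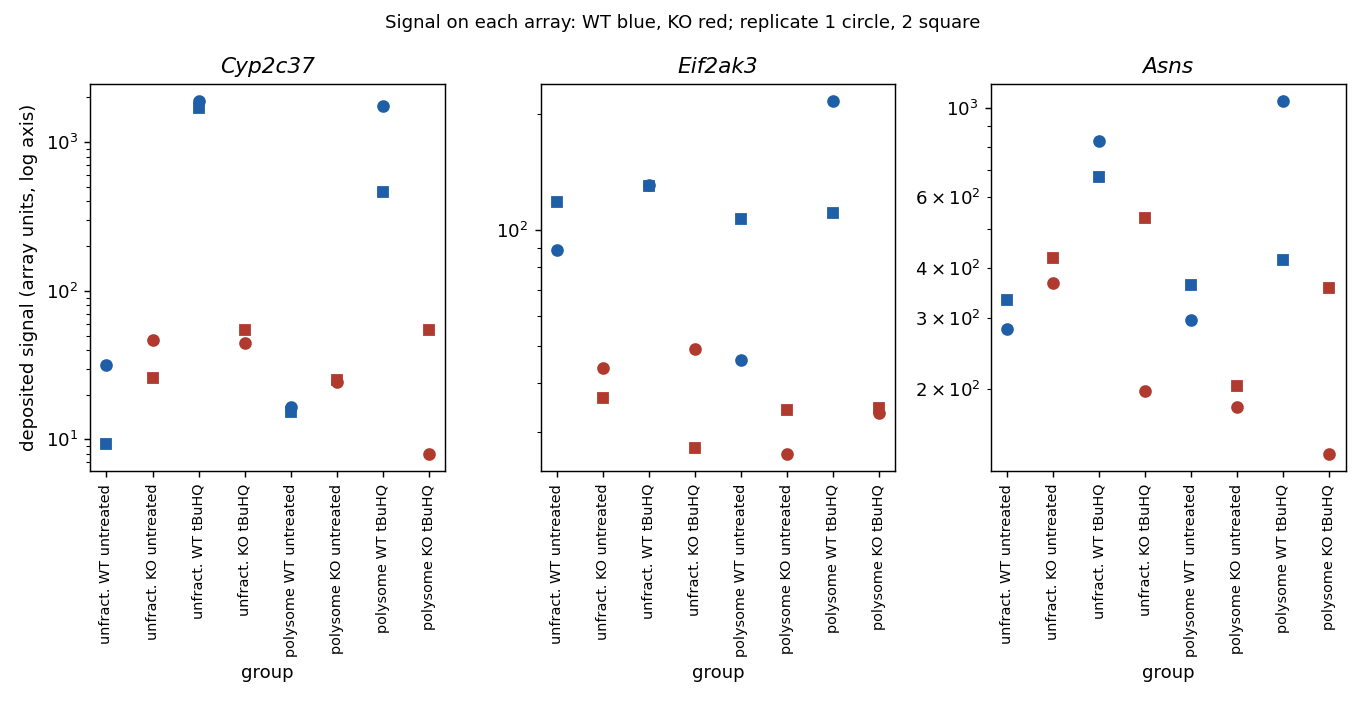
Deposited signal (log axis) of Cyp2c37, Eif2ak3 and Asns on each of the 16 arrays, by fraction, genotype (wild-type blue, knockout red) and treatment, with replicate 1 as a circle and replicate 2 as a square. Cyp2c37 is high on the 4 wild-type tBuHQ arrays alone, and the Eif2ak3 points of knockout livers lie under those of wild-type livers in each of the 4 conditions.

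The other genes called without wild-type replicate 2 rested on wild-type replicate 1 as the only wild-type array. In each of these it was the highest or the lowest of the 16 arrays, Eif2ak3 included, and without wild-type replicate 1 none of these 8 genes was called. Rps27l, a ribosomal protein S27-like gene, had 708 and 5789 on the wild-type arrays and 4937 and 3061 on the knockout arrays. Wild-type replicate 1 was the low one, against 3061 to 6122 on the other 15 arrays, and the groups overlapped. The Rps27l difference was 0.93 with all arrays (adjusted p 0.696) and 2.43 without wild-type replicate 2 (adjusted p 0.00379). Serf2, which encodes a small EDRK-rich factor, and Cox8a, a subunit of cytochrome c oxidase, had the same form, with wild-type replicate 1 at 943 and 371 and the other 15 arrays at or above 3596 and 1360. Desi2, a deSUMOylating isopeptidase, had 169 and 556 against 673 and 495, differences of 0.87 (adjusted p 0.530) and 1.68. Its 169 lay close to the lowest of the other arrays, 174, which with 199 came from the unfractionated wild-type tBuHQ arrays. The 12 arrays that were not wild-type with tBuHQ had 201 to 697. Zdhhc12, a protein palmitoyltransferase, was the called higher gene whose genotypes did not overlap with all 4 arrays, with 18.7 and 103 in wild-type and 146 and 139 in knockout polysomes. Its difference was 1.30 with all arrays (adjusted p 0.452) and 2.19 without wild-type replicate 2 (adjusted p 0.0486). Among the lower calls, Igtp, an interferon-induced GTPase, was 1660 on wild-type replicate 1 and at most 1476 elsewhere. That 1476, beside 734, came from the unfractionated wild-type tBuHQ arrays. The 12 arrays that were not wild-type with tBuHQ reached at most 656. Kpnb1, importin beta of nuclear import, was 1003 and 331 in wild-type and 191 and 300 in knockout polysomes. Its difference was -1.22 with all arrays (adjusted p 0.449) and -1.99 without wild-type replicate 2 (adjusted p 0.0493). The other 3 Kpnb1 probe sets differed by -0.41, -0.26 and 0.34 with all arrays, and the mean over probe sets by -0.39 (adjusted p 0.782). Other conditions also had lower signals of the brightest Kpnb1 probe set in knockout liver. In untreated polysome RNA it had 743 and 608 in wild-type and 137 and 140 in knockout (-2.16, adjusted p 0.220 by limma). In untreated unfractionated RNA it had 617 and 607 against 184 and 157. In unfractionated tBuHQ RNA the difference was -0.56 (adjusted p 0.850).

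Next in the order of unadjusted p without wild-type replicate 2 stood genes whose arrays did not overlap and which missed the threshold in both of these fits. Arf5, a small GTPase of Golgi traffic, had 99.0 and 85.6 in wild-type and 416 and 269 in knockout polysomes, a difference of 1.70 ± 0.29 (SE, n = 2 per genotype; adjusted p 0.212 by limma, 0.0992 without wild-type replicate 2). Without wild-type replicate 1 it was 1.79 and was called (adjusted p 0.00904). The wild-type pair showed little spread. Il17rc, a subunit of the interleukin-17 receptor, had 96.1 and 13.5 in wild-type and 271 and 243 in knockout polysomes. The 13.5, on wild-type replicate 2, was under the absent spike-in level of 15.1. Il17rc was 152 to 336 on the 12 arrays that were not wild-type with tBuHQ, and the wild-type pair here lay below that range. On the unfractionated wild-type tBuHQ arrays Il17rc had 161 and 121, of which the first was within the range. Its difference was 2.24 with all arrays (adjusted p 0.297), 1.28 without wild-type replicate 2 (adjusted p 0.0992) and 3.21 without wild-type replicate 1, where it was called (adjusted p 1.05e-05). The remaining higher genes of this group were Ndufa1, a complex I subunit, Mpc1, a mitochondrial pyruvate carrier, Ccng2 (cyclin G2), Dusp28 and Abhd14a, with differences of 0.65 to 1.12 with all arrays (adjusted p 0.431 to 0.485) and of 1.04 to 1.87 without wild-type replicate 2 (adjusted p 0.0775 to 0.0992). On each of these 5 genes wild-type replicate 1 was the lowest of the 16 arrays.

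On the lower side, Tiam2, an exchange factor for the GTPase Rac, had 165 and 89.5 in wild-type and 10.2 and 29.6 in knockout polysomes, a difference of -2.0 ± 0.40 (SE, n = 2 per genotype; adjusted p 0.297 by limma) and of -2.39 without wild-type replicate 2 (adjusted p 0.0837). A second, dimmer Tiam2 probe set had 29.8 and 31.2 against 40.0 and 22.5, and with the mean over probe sets the difference was -1.0 (adjusted p 0.463). Arfgap3, which switches off Arf GTPases at the Golgi, had 146 and 110 against 38.2 and 45.7, differences of -1.31 and -1.49 (adjusted p 0.395 and 0.127). Aadac, an esterase of the hepatocyte ER, had 6347 and 4731 against 2173 and 3231, differences of -1.04 and -1.25 (adjusted p 0.430 and 0.116). In the kept probe sets of these 3 genes the 2 wild-type arrays differed less from each other than from the knockout arrays. Nop56, a core protein of small nucleolar ribonucleoproteins, had 267 and 133 against 112 and 100.2 (-0.75 and -1.21, adjusted p 0.452 and 0.0957).

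The arm downstream of PERK was read next. Asns, the asparagine synthetase gene and a textbook ATF4 target, had signals of 1037 and 419 in wild-type and 138 and 355 in knockout polysomes. The genotypes did not overlap, although wild-type replicate 2 and knockout replicate 2 were close. The difference was -1.50 ± 0.47 (SE, n = 2 per genotype; adjusted p 0.444 by limma) and -2.14 without wild-type replicate 2 (adjusted p 0.112). A second Asns probe set had 616 and 249 against 73.7 and 272, in which the groups overlapped. Atf4 mRNA itself had 1799 and 1634 in wild-type and 2211 and 1431 in knockout polysomes (0.05 and -0.02). Ddit3, which encodes the ATF4-induced factor CHOP, had 144 and 93.0 against 165 and 123 (0.26 and -0.01). Ppp1r15a, the GADD34 regulatory subunit that returns eIF2 to its unphosphorylated form, had 373 and 217 against 765 and 255 (0.61 and 0.24). Trib3, a pseudokinase induced by ATF4 and CHOP, had 130 and 53.4 against 69.9 and 41.1 (-0.52 and -1.06). The groups overlapped in all 4 of these genes.

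Of 37 tested members of the list of ATF4 and CHOP targets, none was called by limma, and 2 had an unadjusted p under 0.05, both lower. Both knockout arrays were below both wild-type arrays in 6 (16.2%) and above in 4 (10.8%), against 20.4% and 13% of all genes, so these shares were near the background. The list's medians were -0.04 and -0.20. Beside Asns, the lower members included Slc38a2, an amino acid transporter, with 763 and 908 against 409 and 510 (-0.84 and -0.72, adjusted p 0.431 and 0.294), and Ero1a, an ER oxidase, with 171 and 177 against 109 and 128 (-0.50 and -0.48, adjusted p 0.569 and 0.534). Among 13 mRNAs known to resist eIF2 phosphorylation through upstream open reading frames, 1 lay above and 1 below. Examples from the lists, here and below, were chosen after their values were seen.

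The aminoacyl-tRNA synthetases, which charge tRNAs with amino acids and include many ATF4 targets, were read as a list. Of 19 tested, 9 had both knockout arrays below both wild-type arrays (47.4%, against 20.4% of all genes) and none above. By limma none was called, and 4 had an unadjusted p under 0.05, all lower. Their median difference was -0.35, against -0.02 over all genes. It was -0.51 without wild-type replicate 2 (all genes -0.07) and -0.15 without wild-type replicate 1 (all genes -0.05). Rars, for arginine, had 1123 and 1167 in wild-type and 720 and 528 in knockout polysomes, a difference of -0.88 ± 0.23 (SE, n = 2 per genotype; adjusted p 0.430 by limma) and of -0.85 without wild-type replicate 2 (adjusted p 0.211). Eprs, for glutamate and proline, had 2251 and 3928 against 1377 and 1496, differences of -1.04 (adjusted p 0.431) and -0.64. It was -1.44 without wild-type replicate 1, where wild-type replicate 2 alone stands for the genotype. Iars, for isoleucine, had 590 and 666 against 376 and 381 (-0.70 and -0.62, adjusted p 0.444 and 0.348). In these 3 the wild-type pair stayed clear of the knockout pair by more than the spread between the knockout arrays. The median of the same list was -0.39 in untreated polysome RNA and 0.06 in unfractionated tBuHQ RNA, which come from other arrays, and the difference between these medians was not tested.

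**Figure D4:**
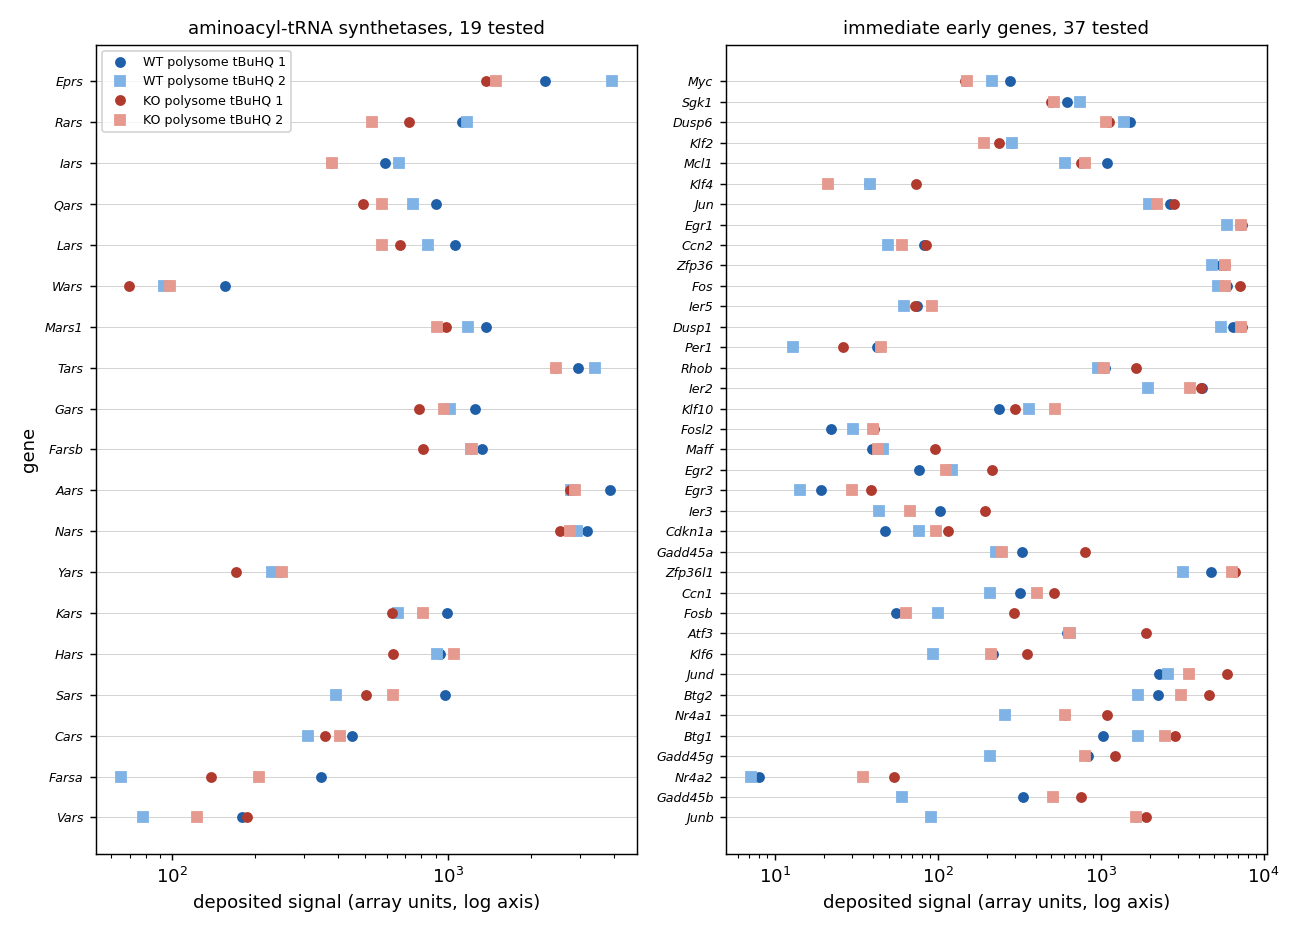
Deposited signal (log axis) of the 19 tested aminoacyl-tRNA synthetases and the 37 tested immediate early genes on the 4 tBuHQ polysome arrays, ordered by genotype difference. Both knockout arrays (red) lie below both wild-type arrays (blue) in 9 synthetases and above them in 14 immediate early genes.

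ATF4 and CHOP bind composite elements with the letters TGATGNAA, which were searched on both strands in the 250 bases before the transcription starts listed by RefSeq (build GRCm38.p6). Of 9828 tested genes with a promoter listed, 2.48% held the element. Shares differed between lists, with 3 of 13 pancreatic acinar markers (23.1%), 2 of 15 gluconeogenesis and fasting genes (13.3%) and 0 of 59 oxidative phosphorylation genes. The element was held by 8 of 33 genes on the list of ATF4 and CHOP targets (24.2%) and by 3 of 12 synthetases (25%). The 130 bases before the start are shown for Asns and these 3 synthetases, and for Cyp2c37 as the called gene, on the strand of the gene and with the element in capitals.
Asns, chr6:7693210-7693339, minus strand: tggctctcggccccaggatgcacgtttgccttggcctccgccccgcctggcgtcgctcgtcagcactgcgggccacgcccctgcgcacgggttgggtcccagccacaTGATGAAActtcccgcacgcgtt
Aars, chr8:111033712-111033841, plus strand: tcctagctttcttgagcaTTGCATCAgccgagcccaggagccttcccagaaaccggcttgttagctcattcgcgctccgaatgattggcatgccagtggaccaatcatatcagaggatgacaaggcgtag
Gars, chr6:55037871-55038000, plus strand: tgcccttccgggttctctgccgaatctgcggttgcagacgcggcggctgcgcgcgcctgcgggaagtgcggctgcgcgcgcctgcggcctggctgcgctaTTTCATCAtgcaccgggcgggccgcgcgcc
Tars, chr15:11399659-11399788, minus strand: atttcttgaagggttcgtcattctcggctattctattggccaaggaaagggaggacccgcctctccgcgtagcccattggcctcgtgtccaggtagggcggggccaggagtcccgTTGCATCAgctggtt
Cyp2c37, chr19:39992294-39992423, plus strand: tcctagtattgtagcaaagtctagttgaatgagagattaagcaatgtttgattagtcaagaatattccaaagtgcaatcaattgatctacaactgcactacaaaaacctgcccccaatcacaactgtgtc
The element starts 23 bases before the start of Asns, and lies on the reverse strand 112, 30 and 15 bases before the starts of Aars, Gars and Tars. Gars and Tars were among the 9 lower synthetases, with all-array differences of -0.36 for Gars (adjusted p 0.687) and -0.37 for Tars (adjusted p 0.602), which were -0.51 and -0.26 without wild-type replicate 2, and in Aars the arrays overlapped. Other genes held the element too, Herpud1 and Tiam2 among those named here. A match in these letters describes the sequence and does not show binding, and the absence of one in the Cyp2c37 window says only that the letters are not there.

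Of 23 tested genes of PERK and eIF2 control, 6 lay below (26.1%, against 20.4% of all genes), the deleted Eif2ak3 among them, and 1 above, so the share was near the background. The median was -0.22, and -0.31 without wild-type replicate 2. Without wild-type replicate 1 it was -0.06, beside -0.05 over all genes. Eif2b3, a subunit of the eIF2 exchange factor eIF2B, had 457 and 361 in wild-type and 246 and 250 in knockout polysomes (-0.68 and -0.84, adjusted p 0.452 and 0.211). Eif2s2, the beta subunit of eIF2, had 4229 and 3463 against 2373 and 2899 (-0.54 and -0.69, adjusted p 0.479 and 0.246). Of 41 other translation factors, 15 lay below (36.6%, against 20.4% of all genes) and 2 above, with medians of -0.11 and -0.24. None was called with all arrays, with 4 lower and 2 higher at an unadjusted p under 0.05, and 4 were called higher without wild-type replicate 1. Eif4g3, a scaffold of the cap-binding complex, had 421 and 593 against 273 and 263 (-0.86 and -0.62, adjusted p 0.431 and 0.377). Eif5a, which helps ribosomes past stalling sequences, was above, with 7031 and 2806 against 7513 and 8222, where the low value was that of wild-type replicate 2. Its differences were 0.82 and 0.16 (adjusted p 0.452 and 0.777), and 1.48 without wild-type replicate 1 (adjusted p 0.000484). Of 43 tested ribosomal protein genes 7 lay below and 5 above, which are shares near the background.

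Genes tied to the IRE1 and ATF6 branches of ER stress were next. They are not all separate from the PERK arm, as the Herpud1 promoter also held the ATF4 and CHOP element. Hspa5, the ER chaperone BiP, had 4354 and 4561 in wild-type and 3111 and 3341 in knockout polysomes. The groups did not overlap, but the difference of -0.47 ± 0.25 (SE, n = 2 per genotype) had an adjusted p of 0.626 by limma, and it was -0.43 without wild-type replicate 2 (adjusted p 0.587). Hspa5 differed by -0.52 in untreated polysome RNA and by -0.38 in unfractionated tBuHQ RNA. Dnajb9, an ER co-chaperone induced by XBP1, had 1263 and 1041 against 848 and 797 (-0.47 and -0.61, adjusted p 0.673 and 0.479). Herpud1, a membrane factor of ER-associated degradation, had 5664 and 3085 against 2282 and 3109 (-0.65 and -1.08), and Xbp1, the factor spliced by IRE1, had 4702 and 2194 against 4196 and 4145 (0.37 and -0.17). Both of these overlapped. In untreated polysome RNA the differences were 0.79 for Dnajb9, 0.69 for Herpud1 and -0.10 for Xbp1. In unfractionated tBuHQ RNA they were -0.72, -0.46 and -0.48, and none of these differences was called by limma (adjusted p 0.606 to 0.978). Of 23 tested ER chaperones and ATF6 targets, 7 lay below (30.4%, against 20.4% of all genes) and none above, with medians of -0.01 and -0.03. By limma none was called with all arrays, with 2 lower and 1 higher at an unadjusted p under 0.05. The lower members also included Creld2, a secreted ER stress protein, with 379 and 722 against 228 and 196 (-1.25 and -0.80, adjusted p 0.467 and 0.553), and Sel1l, the adaptor of the ubiquitin ligase HRD1, with 613 and 808 against 323 and 413 (-0.92 and -0.72, adjusted p 0.521 and 0.540). No XBP1, ERAD or secretory gene was called by limma with all arrays, with 4 higher and 3 lower at an unadjusted p under 0.05. Of these 43 genes, 11 lay below (25.6%) and 5 above (11.6%), shares near the background of 20.4% and 13%. They split within the EDEM family of mannosidase-like proteins, where Edem3 had 306 and 348 against 148 and 160 (-1.01 and -0.92, adjusted p 0.444 and 0.318) and Edem2 had 325 and 294 against 508 and 474 (0.64 and 0.57, adjusted p 0.452 and 0.362).

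Cytosolic heat shock genes also divided. Of 22 tested, 10 lay below (45.5%, against 20.4% of all genes) and 4 above (18.2%, against 13%). By limma none was called, with 4 lower and 1 higher at an unadjusted p under 0.05, and the medians were -0.21 and -0.23. The lower ones included Bag3, an HSP70 co-chaperone, with 353 and 572 in wild-type and 159 and 249 in knockout polysomes (-1.11 and -0.78, adjusted p 0.430 and 0.348), and was called without wild-type replicate 1 (-1.45, adjusted p 0.0306). Hspa4, an HSP110-type exchange factor of HSP70, had 1518 and 1787 against 858 and 928 (-0.87 and -0.76, adjusted p 0.430 and 0.259). Hsph1, another of that type, had 967 and 1309 against 571 and 527 (-1.01 and -0.80, adjusted p 0.431 and 0.339). Hspb1, the small heat shock protein HSP27, stood on the other side with 621 and 538 against 1375 and 1271 (1.17 and 1.07, adjusted p 0.430 and 0.263). Both genotype pairs were tight in Hspa4 and Hspb1, and the wild-type arrays of Bag3 and Hsph1 were further apart.

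Immediate early genes, which are transcribed within minutes of a stimulus and include many short-lived mRNAs, were read as a list. Of 37 tested, 14 lay above (37.8%, against 13% of all genes) and 4 below. By limma none was called, with 12 higher and 1 lower at an unadjusted p under 0.05, and 5 were called higher without wild-type replicate 1. The median was 0.47, and 0.30 without wild-type replicate 2. Part of the size came from that array: Junb had 1646 and 91.6 in wild-type and 1888 and 1648 in knockout polysomes, and its difference was 2.07 with and 0.10 without wild-type replicate 2, and 4.05 without replicate 1 (adjusted p 0.000102). Gadd45b, a growth arrest and stress gene, had 333 and 60.2 against 763 and 512, a difference of 1.98 with and 0.88 without wild-type replicate 2, and 3.07 without replicate 1 (adjusted p 0.000523). Others were apart from both wild-type arrays. Btg2, an antiproliferative factor, had 2236 and 1686 against 4654 and 3127 (0.97 and 0.77, adjusted p 0.431 and 0.341), Btg1 had 1033 and 1695 against 2883 and 2486 (1.01 and 1.36, adjusted p 0.444 and 0.128), and Jund, an AP-1 subunit, had 2290 and 2588 against 5935 and 3499 (0.90 and 0.99, adjusted p 0.516 and 0.354). Nr4a2, an orphan nuclear receptor, had 7.97 and 7.13 in wild-type, both under the absent spike-in level, and 53.8 and 34.9 in knockout polysomes. Among the 4 below, Myc had 276 and 216 against 148 and 152 (-0.65 and -0.81, adjusted p 0.539 and 0.338). Knockout replicate 1 was the highest array for the list as a whole, at a median of 0.45 above the mean of the 4 arrays, against 0.08 for knockout replicate 2.

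Metabolic genes of the hepatocyte were read as further lists, beside the background of 20.4% of all genes below and 13% above. Of 39 tested P450 enzymes 10 lay below (25.6%), a share near the background, and 1 above. Their medians were -0.24 and -0.35, and Cyp2c37 was the called one. Cyp7b1, an oxysterol hydroxylase, had 8095 and 8477 against 5227 and 5327 (-0.65 and -0.62, adjusted p 0.444 and 0.308), with both pairs tight. Cyp4v3, a fatty acid hydroxylase, had 5689 and 5481 against 2964 and 3725 (-0.75 and -0.77, adjusted p 0.471 and 0.341). For this list the knockout arrays disagreed, at medians of -0.42 and 0.14 from the mean of the 4 arrays. Of 70 oxidative phosphorylation genes, 17 lay above (24.3%) and 3 below, with a median of 0.24 that was 0.39 without wild-type replicate 2 and 0.03 without replicate 1. Wild-type replicate 1 was the low array for these genes, 0.30 under the mean. Of 18 clock genes 7 lay below (38.9%) and none above, with medians of -0.16 and -0.21 and none called. Dbp, a clock output factor, had 909 and 379 against 152 and 162 (-1.81 and -2.42, adjusted p 0.521 and 0.257), and Noct, a clock-controlled phosphatase, had 720 and 657 against 142 and 382 (-1.49 and -1.56, adjusted p 0.463 and 0.331). Of 20 cholesterol synthesis genes 6 lay above (30%) and 2 below (10%), with medians of 0.16 and -0.02. Sod1, the cytosolic superoxide dismutase, was the member of the NRF2 list with the widest gap, at 5506 and 8351 in wild-type and 3244 and 3512 in knockout polysomes (-1.0 and -0.70, adjusted p 0.430 and 0.351), and was called without wild-type replicate 1 (-1.30, adjusted p 0.0343). Alb, the albumin gene and hepatocyte marker, had 16040 and 13484 against 14085 and 17197 (0.08 and -0.04).

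**Figure D5:**
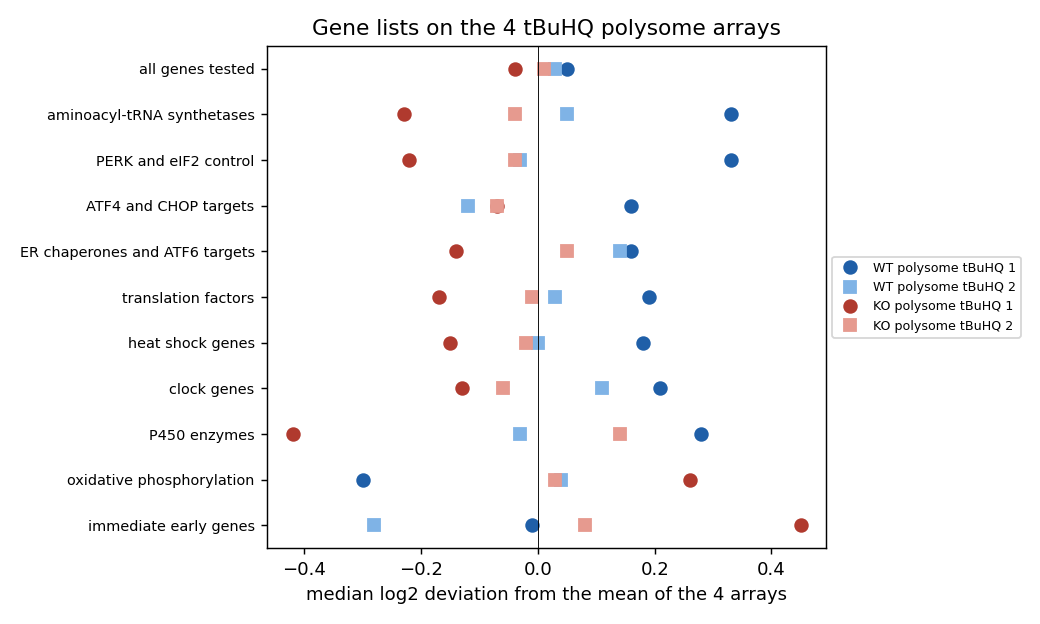
Median log2 deviation of each gene list from the mean of the 4 tBuHQ polysome arrays, 1 point per array, for all 12148 genes tested and 10 lists. Wild-type replicate 1 and knockout replicate 1 are the outermost points (0.33 and -0.23 for the synthetases, with replicate 2 at 0.05 and -0.04), except for the ATF4 and CHOP targets and the immediate early genes, where wild-type replicate 2 is lowest.

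Markers of other cells were read beside these lists. Of 16 tested pancreatic acinar markers, 7 lay below (43.8%, against 20.4% of all genes) and none above. Their median was -1.36, which was -2.73 without wild-type replicate 2 and -0.08 without wild-type replicate 1. Their summed signal was 4519 and 2145 on the wild-type arrays and 2277 and 994 on the knockout arrays. In untreated polysome RNA the median was of the other sign, at 1.49. The sums there were 3247 and 1529 in wild-type and 6817 and 1820 in knockout. In unfractionated tBuHQ RNA the median was -1.96, with sums of 8696 and 2950 in wild-type and 1982 and 2060 in knockout. The signal thus varied between replicates in both genotypes. Ctrb1, a chymotrypsinogen, had 555 on wild-type replicate 1 and 3.30 to 5.05 on the other 3 arrays. The part of pancreatic RNA in the results that rest on wild-type replicate 1 was not tested. Of 18 macrophage markers 6 lay below (33.3%) and 1 above, with medians of -0.23 and -0.19. In the other 11 the genotypes overlapped. For this list the knockout arrays disagreed. Their medians from the mean of the tBuHQ polysome arrays were 0.16 for replicate 1 and -0.24 for replicate 2. Those of the wild-type arrays were 0.08 for replicate 1 and 0.12 for replicate 2, so knockout replicate 1 was the highest array. Mpeg1, perforin-2 of macrophages, had 391 and 319 against 141 and 127 (-1.30 and -1.44, adjusted p 0.431 and 0.208), while Csf1r had -0.41 and -0.32 and Cybb -0.33 and -0.20. Hepatocyte markers had medians of 0.08 and -0.15, endothelial markers -0.07 and 0.21, and stellate cell markers 0.09 and 0.15, against -0.02 and -0.07 over all genes.

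Whether the genotype difference was particular to treated polysomes was tested with interaction terms. With all arrays no gene (0%) differed between the treated and the untreated polysome contrasts by limma, with 618 genes (5.09%) at an unadjusted p under 0.05, and none (0%) between the polysome and the unfractionated tBuHQ contrasts, with 1038 (8.54%). Without wild-type replicate 2, Cyp2c37 (0.00823% of genes) passed the first of these tests, and Rps27l and Serf2 (0.0165%) passed the second. Without wild-type replicate 1 the counts were 155 (1.28%) and 124 (1.02%), so these counts again followed the choice of wild-type array. In untreated polysome RNA the single call (0.00823%) was Nr1d2, a clock repressor, which was higher in knockout (1.97, adjusted p 0.0129). In tBuHQ polysomes Nr1d2 had 1307 and 1642 in wild-type and 1111 and 1146 in knockout, differences of -0.37 and -0.21 (adjusted p 0.700 and 0.814).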

How the data were processed

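Liver RNA was measured on 16 Affymetrix mouse arrays, of which 4 enter the comparison. The values used are the signal intensities that the authors deposited for 45101 probe sets, all arrays having the same 2%-trimmed mean. No source used here names the summarisation software. A score (z score) deposited for 18697 probe sets on each array served only to check labels. In the platform annotation 34958 probe sets had a single gene symbol (34754 of them brought up to date by Entrez identifier in the GRCm38.p6 table), 932 had several and 9211 lacked one.

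Signals were turned to log2(signal + 16), which understates differences of dim genes. The brightest probe set of each gene was kept, and means under the 40th percentile were dropped, leaving 12148 genes of 18194. limma 3.58.1 in R 4.3.3 fitted 8 group means to 16 arrays with an intensity trend (8 residual and 6.97 prior degrees of freedom; 7 and 8.6 without wild-type replicate 2). Benjamini-Hochberg adjustment ran over all genes of a contrast, with calls under 0.05. The p-values rest on the spread between replicate arrays, which holds pools and labelling together. The fit took polysome and unfractionated arrays as independent, which would not hold if both fractions shared liver pools. The fit was tested on simulated data with 50 changed genes of each size. With all arrays it called 36% of the genes with a true log2 difference of 1 and 84% of those with 2, and 8 unchanged genes. Both rates were lower without wild-type replicate 2. The changed genes were drawn from the brighter ones, and differences of 1, 2, 3 and 4 were planted together. Many true changes ease the Benjamini-Hochberg threshold, so these rates do not carry over to the real contrast, which had 1 call. A gene had the same simulated spread on all 16 arrays, so the departure of wild-type replicate 2 was not part of that test. Array number, 2 per group, limits the precision.

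The comparison, the gene lists and the naming rule were chosen with earlier results of these data known. The rule took genes called with and without wild-type replicate 2 whose arrays did not overlap, filled to 8 a direction by the smallest unadjusted p without that array, and added Eif2ak3, Alb and 9 stress response genes whatever their values. Rps27l, Serf2, Igtp, Desi2 and Cox8a, called only without wild-type replicate 2 although their arrays overlap, were named after their values were seen, as were Cxcl1, Nr1d2 and the examples given from the lists. A gene list is described by counts and medians, without a set test.

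Replicate numbers were checked as pairs. The difference of replicate 1 minus 2 correlated across genes between genotypes at -0.30 in tBuHQ polysomes and at -0.05, -0.15 and 0.12 in the other 3 conditions, so not every pair was over 0.1 and the numbers were not taken as pairs. Between the fractions of a genotype and treatment it was 0.08 to 0.10 in 3 cases and 0.33 in untreated knockout, and no block across fractions was fitted.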

Additional observations from a re-analysis of the deposited data

How the results depend on the processing

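Groups of 2 arrays limit every value here. With all arrays, 1 gene was called lower in knockout tBuHQ polysomes and 0 were called higher. The lower count was 0 with a pseudocount of 1, with the polysome arrays alone, with the 4 tBuHQ polysome arrays alone and with a replicate block. Leaving out 1 of the 4 arrays gave 0 to 267 higher and 0 to 48 lower calls, the highest both without wild-type replicate 1. For the treated minus untreated contrast, leaving out 1 of 8 arrays gave 0 to 141 positive and 0 to 14 negative calls, and for the polysome minus unfractionated contrast 0 to 115 positive and 0 to 9 negative. In the latter, 2 negative genes were called without unfractionated knockout tBuHQ replicate 2. At an adjusted p under 0.1 the treated minus untreated contrast had 2 negative calls.

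Cyp2c37 was -5.34 with a pseudocount of 1 (adjusted p 0.0502) and -3.41 with 64 (0.00277). It stayed at -4.49 with the polysome arrays alone (0.258), the 4 arrays alone (0.975) and the replicate block (0.0926). The numbers were not taken as pairs. With crossed numbers in the block, added after seeing the data, the lower count remained 1 and the treated minus untreated contrast had 1 negative call. The sign of Alb turned to -0.01 under both quantile normalizations and that of Atf4 to -0.09 with the mean of its probe sets. Leaving out 1 array in turn also changed the sign of 7 genes that were not called with all arrays, whose values then ranged from -0.06 to 0.23 (Alb), -0.26 to 0.36 (Atf4), -0.01 to 0.54 (Ddit3), -0.15 to 1.38 (Ppp1r15a), -0.57 to 2.43 (Rps27l), -1.06 to 0.01 (Trib3) and -0.17 to 0.92 (Xbp1). Of 570 values for the 30 named genes under 19 alternatives, 543 kept their sign and their side of the threshold. The cause of these changes was not tested. The z scores were not run as an alternative, because a column named for one array holds another's values.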

Other observations

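Other gene groups had no member called by limma with all arrays. The background of non-overlapping genes was 20.4% below and 13% above. Of 20 hypoxia genes, 6 lay below (30%) and 3 above (15%) in knockout tBuHQ polysomes, with 4 lower and 0 higher at an unadjusted p under 0.05. Their median was -0.06, and -0.40 without wild-type replicate 1. Of 32 inflammatory genes 8 lay below (25%) and 4 above (12.5%), with a median of 0.03. Of 37 proteasome genes 5 lay below (13.5%) and 1 above (2.7%), both under the background, and the wild-type arrays disagreed, at medians of 0.32 and -0.21 from the mean of the 4 arrays. Of 20 genes of SREBP1-driven lipid synthesis 4 lay above (20%) and 1 below (5%). Slc25a1, the mitochondrial citrate carrier, had 2154 and 1020 in wild-type and 2776 and 2725 in knockout polysomes, a difference of 0.88 (adjusted p 0.444) that was 0.35 without wild-type replicate 2 and 1.42 without replicate 1 (adjusted p 0.00468).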
